A study of Mus musculus with 10 samples.

Results

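A set of 37 genes for glycolysis, glycogen and glucose transport was taken by name from the 25700 genes counted in regenerating mouse muscle. All 37 had at least 10 counts in each of the 10 mice, although 5 mice would have been enough for the rule. Their counts per mouse ran from 23 for Aldoc to 163236 for Aldoa. The genes were sorted into 11 muscle isoforms, whose protein is the form typical of muscle fibers, 10 broad isoforms found in many tissues, and 16 shared forms, for which muscle has no separate main gene in the set. RNA came from the tibialis anterior (TA) of 5 Pax7Cre and 5 miR-501KO mice, all C57BL/6 males of 12 weeks. The TA had been injected with cardiotoxin (CTX), a snake toxin that destroys muscle fibers but spares the muscle stem cells, and was frozen at day 6 of regeneration. The labels give the Pax7Cre mice as wild type and the miR-501KO mice as miR-501 -/-. Both groups carry Cre under the Pax7 promoter, which is active in muscle stem cells, and in the miR-501KO mice, given in the series' design as miR-501 fl/Y, it deletes the floxed miR-501 precursor from those cells and what they form. Whole muscle was sequenced, so cells outside the myogenic lineage contributed to every value. Mir501 itself was not analysed here, and the counts give no check of the genotype labels.

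Glycolysis splits glucose into pyruvate and yields ATP without oxygen, and fast muscle fibers draw on it during short, strong contractions. Fibers also keep glucose as glycogen, which is built by glycogen synthase and branching enzyme and is broken down by glycogen phosphorylase when phosphorylase kinase switches it on. Several steps are carried by a pair of genes, with one isoform used in fibers and another in myoblasts, immune cells and most other cells, and the change from the broad to the muscle form is part of fiber maturation.

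Between 18609222 and 24753258 reads were counted per mouse, and values are given as CPM, the gene's counts scaled to a common library size after TMM scaling. The 37 genes took between 1.99% and 3.25% of all counts, both ends being Pax7Cre mice, mouse 4 and mouse 2. Those same mice were also at both ends of the mature fiber score, which is the mean log2 CPM of 12 genes of mature fibers (Ckm, Myh4, Atp2a1, Ryr1, Casq1, Pvalb, Mb, Actn3, Myoz1, Mybpc2, Cacna1s and Tnnt3), centred over the mice. None of the 12 belongs to the 37. The score was -0.20, 0.75, -0.29, -0.70 and 0.03 in Pax7Cre mice 1 to 5, and -0.06, -0.03, 0.02, 0.37 and 0.11 in miR-501KO mice 1 to 5. The summed level of the 12 genes was 21787 to 58699.5 CPM in Pax7Cre and 34889 to 44084 CPM in miR-501KO mice, so the miR-501KO mice lay inside the Pax7Cre range. The tissue label was met by all 12 of these genes and by 6 of 6 genes of regenerating fibers (Myh3, Myh8, Myog, Mymk, Mymx and Ncam1), summed to 2299 to 3502 and 2532 to 3343 CPM. The 8 macrophage genes summed to 1490 to 2109 and 1610 to 1888 CPM. In a whole muscle a smaller number of fibers and less RNA in each fiber cannot be told apart.

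Per length of exon the muscle isoforms held both high and low places. Eno3, the muscle enolase, had the highest mean over the 10 mice, 2142 CPM per kb of exon, followed by the aldolase Aldoa with 1919.8, the phosphoglycerate mutase Pgam2 with 981 and the triose phosphate isomerase Tpi1 with 911 CPM per kb. The ranges over the mice of Eno3 and Aldoa overlapped, 1328 to 3059 against 1278 to 2959 CPM per kb. Gapdh (623), the lactate dehydrogenase Ldha (527), the glycogen phosphorylase Pygm (424), the pyruvate kinase Pkm (386) and the phosphofructokinase Pfkm (279) came next, each overlapping its neighbour in this order. Among the muscle isoforms the regulators and the entry steps were low, from 30.2 CPM per kb for the transporter Slc2a4 down to 2.82 for Pfkfb1. Among the broad isoforms Eno1 had the highest mean level, 66.3 CPM per kb, and Aldoc, the brain aldolase, the lowest of the whole set, 0.512 CPM per kb. Over the whole order of 37 genes each gene's range overlapped that of its neighbour apart from Pfkfb1 and Aldoc.

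**Figure D1:**
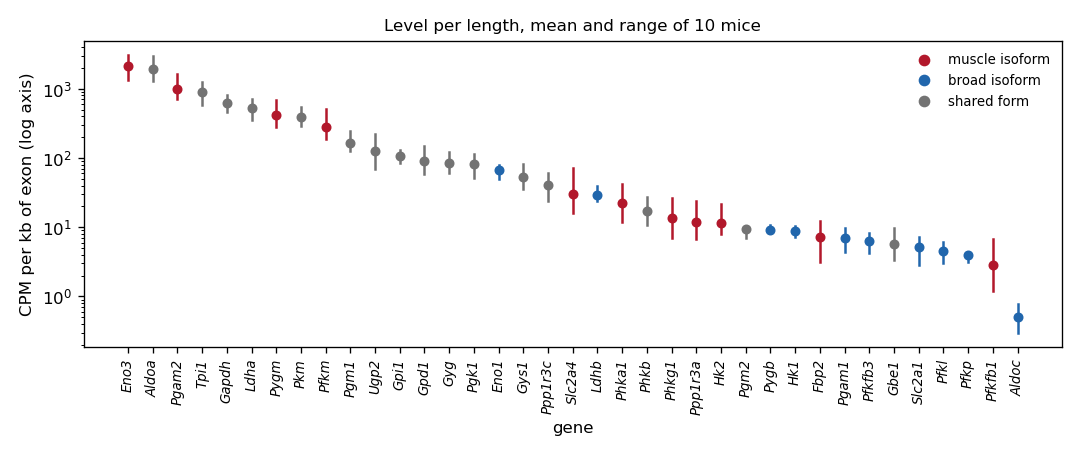
Mean level of each of the 37 genes in CPM per kb of exon (log axis), with a line from the lowest to the highest of the 10 mice, coloured by class and ordered by mean. Eno3 at 2142 and Aldoa at 1919.8 CPM per kb stand at the left end, and Aldoc at 0.512 at the right.

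At the entry of glucose, Slc2a4 encodes GLUT4, the transporter that insulin and contraction bring to the fiber surface. Its level was 78.7, 245, 55.6, 55.5 and 91.2 CPM in Pax7Cre mice 1 to 5 and 73.6, 75.3, 93.4, 163 and 119 CPM in miR-501KO mice 1 to 5. Pax7Cre mouse 2 stood far above the other mice of its genotype, the miR-501KO values lay within the Pax7Cre range, and the highest was 4.42 times the lowest. Slc2a1 encodes GLUT1, the transporter of most other cells, and was at 22.1, 13.0, 10.1, 25.2 and 13.2 CPM in Pax7Cre and 22.9, 19.1, 15.9, 21.6 and 20.98 CPM in miR-501KO mice. Here Pax7Cre mouse 4 was highest and mouse 3 lowest, and the genotypes overlapped. Per length Slc2a4 made up 69.0% to 95.0% of the pair. Hexokinase then traps glucose as its phosphate, Hk2 being the insulin-responsive form of muscle and fat and Hk1 the form of most tissues. Hk2 was at 52.0, 128, 49.7, 50.2 and 65.2 CPM in Pax7Cre and 48.6, 48.1, 60.8, 100.5 and 76.0 CPM in miR-501KO mice, with Pax7Cre mouse 2 highest of all. Hk1 was at 71.9, 72.0, 61.5, 89.2 and 85.7 CPM in Pax7Cre and 65.9, 73.5, 78.7, 72.4 and 87.9 CPM in miR-501KO mice. Hk1 varied by 1.45 times from the lowest to the highest mouse and Hk2 by 2.66 times, and per length Hk2 made up 44.6% to 71.7% of the pair.

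Phosphofructokinase commits sugar phosphate to glycolysis, and the set holds its muscle (Pfkm), liver-type (Pfkl) and platelet-type (Pfkp) genes. Pfkm was at 765, 1719, 657, 627 and 922 CPM in Pax7Cre mice 1 to 5 and 697, 719, 917, 1246 and 1067 CPM in miR-501KO mice 1 to 5. Pfkl was at 36.5, 20.4, 21.3, 41.0 and 24.5 CPM in Pax7Cre and 30.9, 30.2, 27.9, 34.6 and 31.3 CPM in miR-501KO mice. The mouse that was highest for Pfkm, Pax7Cre mouse 2, was the lowest for Pfkl, and the mouse that was lowest for Pfkm, Pax7Cre mouse 4, was the highest for Pfkl. Per length Pfkm made up 96.8% to 99.4% of this pair. Pfkp was at 52.3, 41.5, 46.0, 57.6 and 49.0 CPM in Pax7Cre and 58.9, 51.9, 54.8, 57.9 and 54.7 CPM in miR-501KO mice, so that all 5 miR-501KO mice lay above the Pax7Cre median, while Pax7Cre mouse 4 was above 3 of them. Pfkfb1 and Pfkfb3 encode the enzymes that make and remove fructose 2,6-bisphosphate, the small activator of phosphofructokinase. Pfkfb1 was at 9.36, 27.4, 8.40, 4.85 and 7.003 CPM in Pax7Cre and 8.81, 9.01, 9.08, 18.6 and 10.6 CPM in miR-501KO mice, the widest range of the 37 genes, 5.64 times from lowest to highest. Pfkfb3 was at 39.0, 61.7, 31.7, 45.4 and 41.2 CPM in Pax7Cre and 63.2, 53.6, 40.2, 60.2 and 45.9 CPM in miR-501KO mice. Pax7Cre mouse 2 was the highest Pax7Cre mouse for both, whereas for the other 6 broad isoforms of the pairs that place was held by mouse 4. Per length Pfkfb1 made up 16.7% to 45.5% of the pair, and Pfkfb3 was the more abundant form in every mouse. Fbp2, the muscle bisphosphatase that runs the step backwards, was at 5.46 to 17.9 CPM in Pax7Cre and 4.58 to 18.3 CPM in miR-501KO mice.

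Aldolase and the enzymes after it turn the split sugar into pyruvate and lactate. Aldoa, which splits the sugar phosphate, was at 4686, 8613, 4062, 3722 and 5477 CPM in Pax7Cre mice 1 to 5 and 5196, 5428, 5521, 6979.7 and 6202 CPM in miR-501KO mice 1 to 5. Tpi1 was at 1607 to 3426 CPM in Pax7Cre and 2301 to 2865 CPM in miR-501KO mice. Gapdh, which oxidises the triose, was at 2429, 3348, 2025, 1896 and 2397 CPM in Pax7Cre and 2622, 2606, 2734, 2863 and 2846 CPM in miR-501KO mice. All 5 miR-501KO mice had more Gapdh than 4 of the 5 Pax7Cre mice, and Pax7Cre mouse 2 had more than any of them. The broad aldolase Aldoc had 23 to 53 counts per mouse, 1.22 to 1.97 CPM in Pax7Cre and 0.958 to 2.501 CPM in miR-501KO mice. Gpi1, the isomerase between glucose and fructose phosphate, was at 549 to 834 CPM in Pax7Cre and 620.0 to 835 CPM in miR-501KO mice, and the phosphoglycerate kinase Pgk1 at 117 to 259 CPM in Pax7Cre and 163 to 214 CPM in miR-501KO mice. Pkm, whose counts do not separate its M1 and M2 splice forms, was at 1445 to 2706 CPM in Pax7Cre and 1746 to 2491 CPM in miR-501KO mice. Ldha, which makes lactate, was at 1165 to 2327 CPM in Pax7Cre and 1606 to 1943 CPM in miR-501KO mice, and Ldhb, the form of heart and oxidative tissue, at 37.5 to 62.3 CPM in Pax7Cre and 38.3 to 50.4 CPM in miR-501KO mice. For Tpi1, Pgk1, Pkm, Ldha and Ldhb every miR-501KO value lay inside the Pax7Cre range. Gpd1, which links glycolysis to glycerol phosphate, was at 172 to 434 CPM in Pax7Cre and 214 to 323 CPM in miR-501KO mice. Reads of some of these genes could be split with near-identical copies: of the 100-base windows of their transcripts, 51.7% for Pgk1, 33.9% for Pgam1, 20.9% for Gapdh and 20.4% for Eno1 also occur in another annotated gene. For Pkm 12.3% do, and Gm49759, annotated on the same strand, overlaps Pkm by 767 bases.

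Phosphoglycerate mutase and enolase, both late steps of glycolysis, each have a muscle and a broad gene, and in both the muscle gene dominated. Pgam2 was at 755, 1349, 589.7, 592 and 868 CPM in Pax7Cre mice 1 to 5 and 651, 658, 813, 1035 and 928 CPM in miR-501KO mice 1 to 5. Pgam1 was at 14.9, 8.65, 10.1, 19.0 and 12.8 CPM in Pax7Cre and 14.8, 15.1, 13.3, 15.7 and 16.1 CPM in miR-501KO mice. Pax7Cre mouse 2 was highest for Pgam2 and lowest for Pgam1. Eno3 was at 3718, 5320.1, 3388, 2309.7 and 3674 CPM in Pax7Cre and 3369, 3179, 4063, 4159 and 4073 CPM in miR-501KO mice. Eno1 was at 385, 272, 307, 405 and 317 CPM in Pax7Cre and 426, 396, 338, 357 and 366 CPM in miR-501KO mice. The same mirror held at the other end of the Eno3 values, where Pax7Cre mouse 4 was lowest of the 10 and was highest of its genotype for Eno1. Per length, Pgam2 made up 98.7% to 99.7% and Eno3 94.6% to 98.4% of the pair over the 10 mice. Both genotypes overlapped for all 4 genes.

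The bases before the start of these 4 genes were chosen for printing by their slopes. Theirs are the 2 pairs in which both genes passed the test against the mature fiber score with all 10 mice. In both pairs the broad gene had a negative slope, whose call was lost without Pax7Cre mouse 2 or mouse 4, as described further on. Ppp1r3a is added as an example whose window holds both kinds of motif. Phka1, which is not printed, also had matches to both. Sequences are RefSeq's, build GRCm38.p6, 250 bases up to the annotated start, read 5′ to 3′ on the gene's strand. Capitals mark E-boxes, CANNTG, the letters read by the myogenic factors of the MyoD family among others, and the MEF2-like letters CTANNNNTAG, each searched on both strands. The windows lie at chr11:5803797-5804046, minus strand, for Pgam2, at chr19:41911621-41911870, plus strand, for Pgam1, at chr11:70656926-70657175, plus strand, for Eno3, at chr4:150236458-150236707, plus strand, for Eno1, of which RefSeq has 3 starts and the first is shown, and at chr6:14755275-14755524, minus strand, for Ppp1r3a.

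Pgam2: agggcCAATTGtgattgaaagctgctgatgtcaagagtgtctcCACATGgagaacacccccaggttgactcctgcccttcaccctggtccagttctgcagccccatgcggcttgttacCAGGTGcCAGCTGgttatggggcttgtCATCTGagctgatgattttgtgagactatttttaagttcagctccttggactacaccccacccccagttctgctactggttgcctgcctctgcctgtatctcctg
Pgam1: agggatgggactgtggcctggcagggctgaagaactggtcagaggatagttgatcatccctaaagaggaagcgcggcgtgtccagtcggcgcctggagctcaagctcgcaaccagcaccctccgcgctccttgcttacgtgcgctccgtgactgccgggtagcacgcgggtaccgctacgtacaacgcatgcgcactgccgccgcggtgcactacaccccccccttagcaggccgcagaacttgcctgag
Eno3: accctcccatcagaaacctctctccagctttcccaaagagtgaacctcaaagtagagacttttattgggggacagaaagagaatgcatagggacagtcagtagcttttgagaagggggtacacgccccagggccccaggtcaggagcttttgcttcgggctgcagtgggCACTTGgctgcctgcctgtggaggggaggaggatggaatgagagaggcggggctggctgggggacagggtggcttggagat
Eno1: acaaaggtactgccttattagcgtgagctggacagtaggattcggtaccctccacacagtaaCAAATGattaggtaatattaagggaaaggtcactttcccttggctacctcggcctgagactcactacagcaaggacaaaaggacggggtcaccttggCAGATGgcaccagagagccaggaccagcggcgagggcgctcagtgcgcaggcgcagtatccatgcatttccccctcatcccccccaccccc
Ppp1r3a: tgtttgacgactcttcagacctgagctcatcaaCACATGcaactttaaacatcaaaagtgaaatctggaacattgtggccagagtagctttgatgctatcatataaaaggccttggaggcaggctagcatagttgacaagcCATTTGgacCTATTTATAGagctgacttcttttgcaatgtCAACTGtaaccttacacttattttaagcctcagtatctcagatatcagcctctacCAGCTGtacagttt

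The Pgam2 window holds 5 E-boxes and the Pgam1 window none, while the windows of Eno3 and Eno1 hold 1 and 2. RefSeq windows were matched for 35 of the 37 genes. An E-box stood in at least 1 window of 9 of 10 muscle isoforms, 4 of 10 broad isoforms and 12 of 15 shared forms, against 69.3% of all 27025 genes with a window. The narrower CAGCTG, which is also counted as CANNTG, stood before 6 of 10 muscle isoforms (Fbp2, Pfkfb1, Pgam2, Phka1, Ppp1r3a and Pygm), 0 of 10 broad isoforms and 5 of 15 shared forms, against 14.7% of all genes. CTANNNNTAG stood before 2 of 10 muscle isoforms (Phka1 and Ppp1r3a), 1 of 10 broad isoforms (Ldhb) and 0 of 15 shared forms, against 3.7% of all genes. ACGTG, the core read by the hypoxia-inducible factors, which an E-box CACGTG also contains, stood before 4 of 10 muscle isoforms, 4 of 10 broad isoforms and 8 of 15 shared forms, against 18.5% of all genes. These matches describe letters in a short window and do not show that a factor binds there.

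Glycogen breakdown is led by glycogen phosphorylase, whose muscle gene is Pygm and whose brain-type gene is Pygb. Pygm was at 1139, 2245, 891, 989.6 and 1507 CPM in Pax7Cre mice 1 to 5 and 1056, 1093, 1338, 1727 and 1663 CPM in miR-501KO mice 1 to 5. Pygb was at 45.7, 40.5, 47.3, 47.7 and 47.4 CPM in Pax7Cre and 39.4, 43.8, 51.2, 39.2 and 40.9 CPM in miR-501KO mice, the narrowest range of the 37 genes, 1.31 times from lowest to highest. Per length, Pygm made up 96.6% to 98.8% of the pair. Phosphorylase kinase activates phosphorylase, and its muscle subunits are Phka1 and Phkg1. Phka1 was at 117, 261, 94.1, 74.3 and 141 CPM in Pax7Cre and 112, 105, 139, 207 and 163 CPM in miR-501KO mice. Phkg1 was at 69.0, 174, 68.3, 45.0 and 81.8 CPM in Pax7Cre and 71.4, 80.6, 87.9, 109 and 85.8 CPM in miR-501KO mice. For both subunits Pax7Cre mouse 2 was highest and Pax7Cre mouse 4 lowest of the 10, as they were for the shared subunit Phkb, at 81.1 to 205 CPM in Pax7Cre and 106 to 162 CPM in miR-501KO mice. Ppp1r3a, the muscle subunit that brings protein phosphatase 1 to glycogen, was at 69.7, 168, 69.4, 47.8 and 78.0 CPM in Pax7Cre and 60.9, 56.9, 78.1, 116 and 89.3 CPM in miR-501KO mice. Ppp1r3c, another glycogen-targeting subunit, was at 64.6 to 165 CPM in Pax7Cre and 83.0 to 146 CPM in miR-501KO mice.

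Glycogen is built from glucose phosphate by way of Pgm1, Ugp2, the primer glycogenin (Gyg), glycogen synthase (Gys1) and the branching enzyme (Gbe1). Pgm1 was at 369 to 719 CPM in Pax7Cre and 418 to 572 CPM in miR-501KO mice, and Ugp2, which makes UDP-glucose, at 210.4 to 686 CPM in Pax7Cre and 245 to 473 CPM in miR-501KO mice. Gyg was at 144 to 287 CPM in Pax7Cre and 159 to 235 CPM in miR-501KO mice, Gys1 at 170.4 to 388 CPM in Pax7Cre and 181 to 314 CPM in miR-501KO mice and Gbe1 at 18.1 to 52.1 CPM in Pax7Cre and 24.7 to 49.2 CPM in miR-501KO mice. In all 5 the highest value of the 10 belonged to Pax7Cre mouse 2. Pgm2, which acts mainly on pentose phosphates, was at 17.8 to 26.5 CPM in Pax7Cre and 24.1 to 27.2 CPM in miR-501KO mice, and there Pax7Cre mouse 2 was the lowest. Over all genes of the set Pax7Cre mouse 2 was the highest of the 10 for 10 of 11 muscle isoforms, 14 of 16 shared forms and 1 of 10 broad isoforms, and Pax7Cre mouse 4 was the lowest for 7, 12 and 1 of them.

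**Figure D2:**
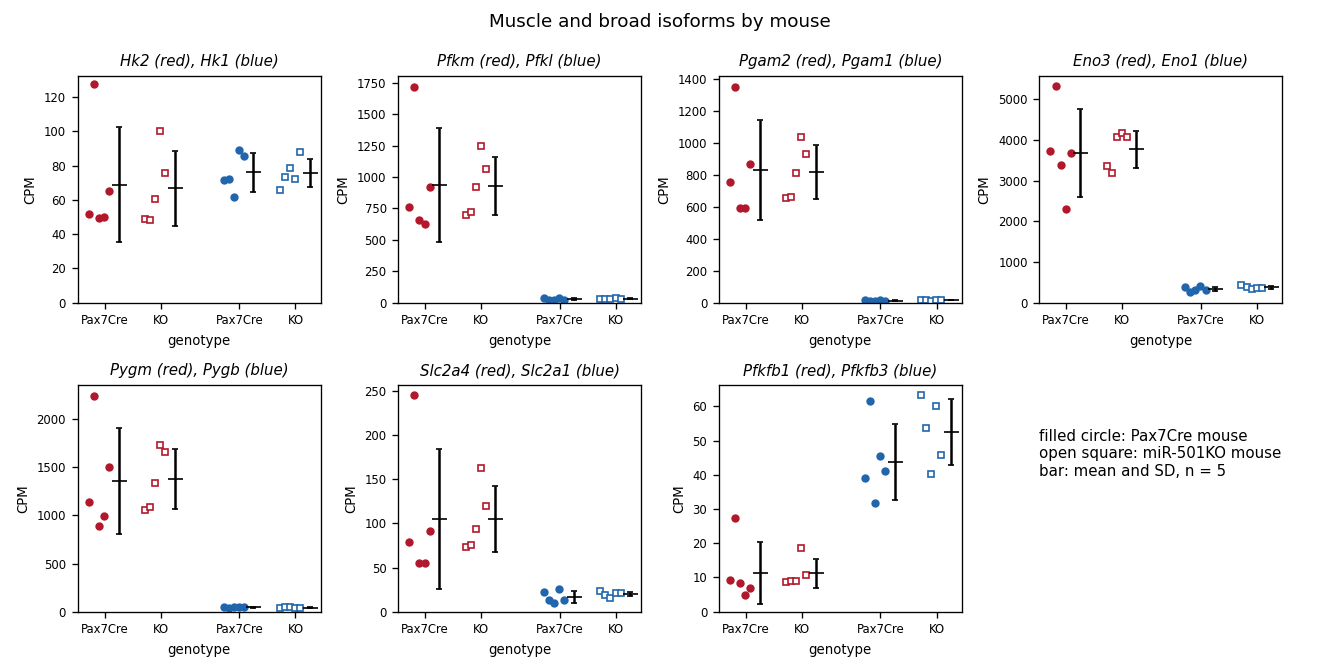
Normalized counts (CPM) of the 7 muscle isoforms (red) and their broad partners (blue), 1 point per mouse, filled for Pax7Cre and open for miR-501KO, with mean and SD of 5 mice. The red points of Pax7Cre mouse 2 stand above the others, and the 2 genotypes overlap in every panel.

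The main comparison of the design asks whether muscle without miR-501 had another level of these genes at day 6. No gene of the set passed the test between genotypes. With edgeR's quasi-likelihood test and Benjamini-Hochberg adjustment over 14410 genes, 0 of 37 genes had an adjusted p under 0.05, where the share of all genes called was 0%. At an unadjusted p under 0.05 there were likewise 0 genes higher and 0 lower, against 0.382% of all genes higher and 0.666% lower in miR-501KO mice, and DESeq2's Wald test also gave 0 and 0. The log2 fold changes (miR-501KO minus Pax7Cre) lay between -0.17 and 0.26, 20 above 0 and 17 below, and their median was 0.0014, beside -0.0042 over all genes tested. The values of the genotypes overlapped for 37 of 37 genes.

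Among the muscle isoforms of the pairs the fold changes were close to 0 and their standard errors wide. On the log2 scale they were -0.05 ± 0.28 (SE) for Hk2, -0.01 ± 0.27 for Pfkm, -0.02 ± 0.22 for Pgam2, 0.03 ± 0.20 for Eno3, 0.02 ± 0.24 for Pygm, -0.0039 ± 0.38 for Slc2a4 and -0.02 ± 0.40 for Pfkfb1. For the broad partners they were -0.01 ± 0.11 for Hk1, 0.10 ± 0.18 for Pfkl, 0.19 ± 0.17 for Pgam1, 0.16 ± 0.12 for Eno1, -0.09 ± 0.09 for Pygb, 0.26 ± 0.22 for Slc2a1 and 0.26 ± 0.17 for Pfkfb3. The median was -0.01 over the 11 muscle isoforms, 0.13 over the 10 broad isoforms and 0.05 over the 16 shared forms. The smallest unadjusted p belonged to Pfkp, with a log2 fold change of 0.17 ± 0.09 and an exact two-sided permutation p of 0.0873. Next came Pfkfb3 (exact permutation p = 0.214), Eno1 (0.214), Slc2a1 (0.333) and Gapdh (0.262, log2 fold change 0.18 ± 0.15), so 4 of these 5 genes were broad isoforms and all 5 had a higher mean in miR-501KO mice. The smallest p that 5 mice against 5 allow is 0.00794. Of the 39 other glycolysis, glycogen and pentose phosphate genes that could be tested, out of 47 listed, 0 passed at an unadjusted p under 0.05, with 18 fold changes above 0 and 21 below.

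The fold changes moved with Pax7Cre mice 2 and 4. Without mouse 2 the median of the muscle isoforms was 0.30, and 7 genes (Slc2a4, Pfkfb1, Pfkfb3, Aldoa, Gapdh, Gbe1 and Phkg1) were higher in miR-501KO mice at an unadjusted p under 0.05, against 1.84% of all genes. Without mouse 4 the median was -0.14, and 3 genes (Pfkp, Pgam1 and Slc2a1) were higher, against 1.57%. The smallest adjusted p of the set, by edgeR, was 0.999 without mouse 2 and 0.996 without mouse 4.

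**Figure D3:**
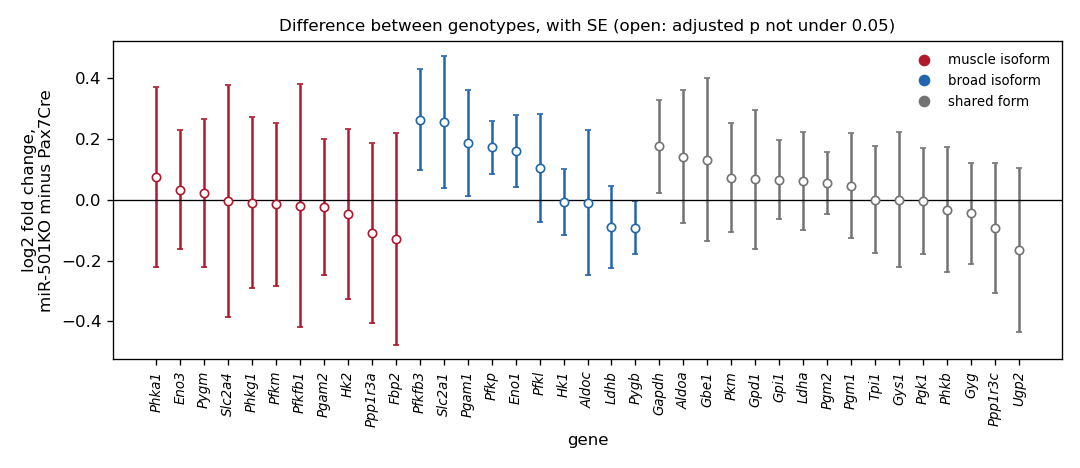
Log2 fold change of each of the 37 genes, miR-501KO minus Pax7Cre, with its standard error, from edgeR on 5 mice of each genotype, grouped by class. The values lie between -0.17 and 0.26, and every point is open because 0 of 37 had an adjusted p under 0.05.

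Dividing each muscle isoform by its broad partner in the same mouse removes what scales both, and asks whether their balance in whole muscle differed. The ratio does not separate a balance within cells from the share of fibers and other cells, which was not tested. The log2 ratio of Eno3 to Eno1 was 3.41 ± 0.64 (SD, n = 5) in Pax7Cre and 3.32 ± 0.30 (SD, n = 5) in miR-501KO mice, a difference of -0.10 (exact permutation p = 0.77). For Pgam2 to Pgam1 it was 5.91 ± 0.83 and 5.70 ± 0.28 (difference -0.21, exact permutation p = 0.659). For Pfkm to Pfkl it was 4.95 ± 0.93 and 4.85 ± 0.31 (difference -0.10, exact permutation p = 0.857), and for Pygm to Pygb 4.79 ± 0.62 and 4.96 ± 0.39 (difference 0.17, exact permutation p = 0.595). None of these 4 differences reached the SD of either genotype. At the entry steps the ratio of Slc2a4 to Slc2a1 was 2.45 ± 1.15 and 2.30 ± 0.49 (difference -0.15, exact permutation p = 0.81), and that of Hk2 to Hk1 -0.23 ± 0.62 and -0.23 ± 0.42 (difference 0.0014, exact permutation p = 1). The ratio of Pfkfb1 to Pfkfb3 was -2.12 ± 0.72 and -2.22 ± 0.43 (difference -0.10, exact permutation p = 0.817). In 7 of 7 pairs the SD was larger in Pax7Cre than in miR-501KO mice, every difference was smaller than the Pax7Cre SD, and every p adjusted over the 7 pairs was 1. Without Pax7Cre mouse 2 all 7 differences were above 0, between 0.11 and 0.42, and without Pax7Cre mouse 4 the ratio of Pygm to Pygb was the only one above 0, at 0.06.

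What set the mice apart was shared by most of the set. The muscle isoforms summed to 6784, 11655, 5882, 4801 and 7447 CPM in Pax7Cre mice 1 to 5 and to 6154, 6028, 7612, 8899 and 8284 CPM in miR-501KO mice 1 to 5. The highest sum was 2.43 times the lowest, and the same mice held the ends of the shared forms, with 11969 to 24468 CPM, 2.04 times. The broad isoforms summed to 577 to 769.8 CPM in Pax7Cre and 663 to 767 CPM in miR-501KO mice, 1.34 times from lowest to highest. The median SD of log2 CPM within a genotype was 0.52 for the muscle isoforms, 0.32 for the shared forms and 0.27 for the broad isoforms, beside 0.18 over all genes tested. The plot of summed levels shows the muscle and shared forms climbing with the mature fiber score in both genotypes, with the 2 Pax7Cre mice at its ends.

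**Figure D4:**
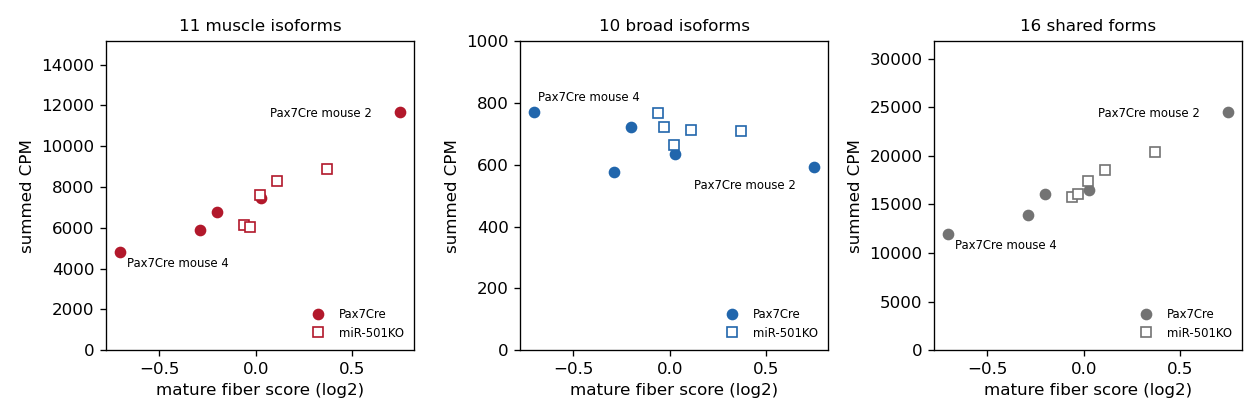
Summed CPM of the 11 muscle isoforms, the 10 broad isoforms and the 16 shared forms against the mature fiber score of each mouse (mean log2 CPM of 12 fiber genes, centred), filled for Pax7Cre and open for miR-501KO. Pax7Cre mouse 4, at -0.70, and mouse 2, at 0.75, are the ends of the score, and hold 4801 and 11655 CPM of muscle isoforms.

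How far each gene followed the fiber genes was measured as a slope, the log2 change of the gene for each unit of the score, which stands for 1 log2 unit of the fiber genes. Genotype was a term in the fit, so the slope is that among mice of one genotype. Score and gene were read from the same libraries and share their depth and scaling. With edgeR's quasi-likelihood test, 26 of 37 genes rose with the score at an adjusted p under 0.05, where 10.9% of 14398 genes tested did, and 2 of 37 fell, where 6.25% did. The genes that rose were 11 of 11 muscle isoforms, 14 of 16 shared forms and 1 of 10 broad isoforms, and both genes that fell were broad isoforms. The muscle class and the score were both chosen for fiber expression, so the test cannot set this split apart from that choice. The share of all genes is not matched for expression in fibers. The median slope was 1.29 for the muscle isoforms, 0.72 for the shared forms and -0.28 for the broad isoforms, beside -0.02 over all genes.

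The 5 largest slopes were those of Pfkfb1, Slc2a4, Phka1, Ppp1r3a and Phkg1. Pfkfb1 rose by 1.76 ± 0.19 (SE) with an adjusted p of 0.000121 by edgeR, and Slc2a4, the GLUT4 gene, by 1.67 ± 0.16 (6.19e-05). The phosphorylase kinase subunits Phka1 and Phkg1 rose by 1.37 ± 0.12 and 1.32 ± 0.08, and Ppp1r3a by 1.34 ± 0.13, with adjusted p of 4.06e-05, 2.34e-06 and 6.28e-05. All 5 slopes were above 1. Among the enzymes of the path itself, Hk2 rose by 1.15 ± 0.17, Pfkm by 1.14 ± 0.14, Pygm by 0.98 ± 0.17, Pgam2 by 0.94 ± 0.13 and Eno3 by 0.76 ± 0.14, with adjusted p between 0.000243 and 0.00307. The remaining muscle isoform, Fbp2, had the largest adjusted p of the 11, 0.0149.

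The broad partners went the other way or did not pass. Pgam1 fell with the score, with a slope of -0.61 ± 0.18 (adjusted p 0.036 by edgeR), as did Eno1, with -0.38 ± 0.12 (adjusted p 0.0398). The slope of Pfkl was -0.53 ± 0.20 (adjusted p 0.0851), of Slc2a1 -0.51 ± 0.26 (0.208), of Pygb -0.18 ± 0.11 (0.295), of Hk1 -0.09 ± 0.15 (0.727) and of Pfkfb3 0.39 ± 0.19 (0.177), none of which passed. Ldhb, named after its value was seen as the single broad isoform that rose, had a slope of 0.50 ± 0.12 (adjusted p 0.0126 by edgeR). Without Pax7Cre mouse 2 or 4 its slope was 0.52 and 0.49 and did not pass (adjusted p 0.433 and 0.056), and without mouse 4 the broad isoform that rose was Pfkfb3, at 0.73 (adjusted p 0.0344). The 14 shared forms that rose had slopes between 0.55 and 1.20. The 2 that did not pass, also named after their values were seen, were Gpi1 at 0.34 ± 0.14 (adjusted p 0.112) and Pgm2 at -0.25 ± 0.13 (0.222). Reads of Pgam1 and Eno1 may be shared with near-identical copies, as given above.

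**Figure D5:**
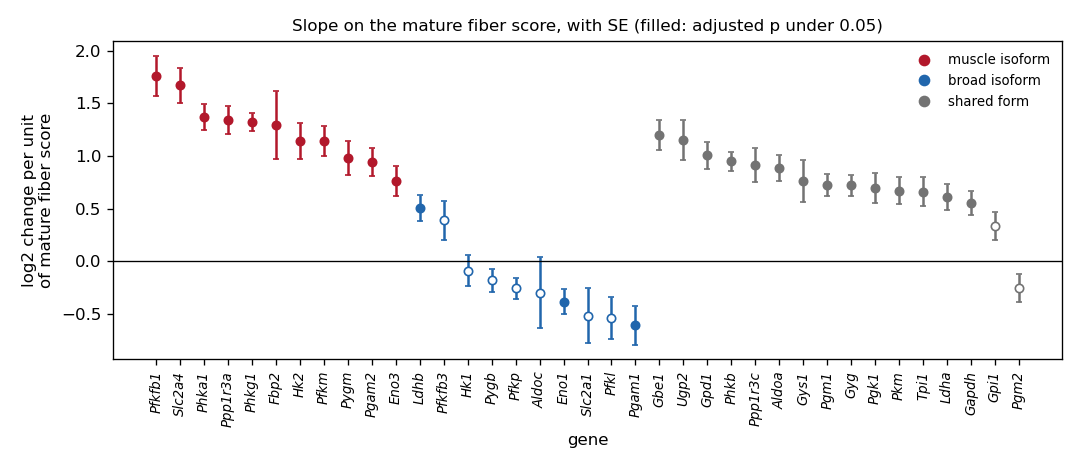
Slope of each of the 37 genes on the mature fiber score (log2 change per unit of score) with its standard error, from edgeR with genotype as a term over 10 mice, grouped by class and filled where the adjusted p was under 0.05. All 11 muscle isoforms lie between 0.76 and 1.76, and 8 of 10 broad isoforms lie below 0.

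The number of genes past the threshold rested on Pax7Cre mouse 2, while the direction of the muscle isoforms did not. Without mouse 2, 2 of 37 genes rose (Phka1 and Phkg1) and 0 fell, where 0.0828% of all genes rose, and 11 of 11 muscle isoforms, 16 of 16 shared forms and 1 of 10 broad isoforms had a slope above 0, beside 48.2% of all genes. Without mouse 4, 25 genes rose and 0 fell, where 8.28% and 4.12% of all genes did. The count of broad isoforms that fell, 2 in all mice, was 5 without Pax7Cre mouse 3, where 8.43% of all genes fell, 1 without Pax7Cre mouse 5 or miR-501KO mouse 1, 2 or 5, where 5.19% to 6.83% fell, and 0 without Pax7Cre mouse 2 or 4, where 0% and 4.12% fell. The 1 gene was Pgam1 each time, and without miR-501KO mouse 4 the 2 were Pgam1 and Pfkl, so the call of Eno1 was lost in 7 of the 10 fits that left out 1 mouse. Without Pax7Cre mouse 2 or 4 Eno1 and Pgam1 kept a slope below 0, -0.43 without mouse 2 and -0.34 without mouse 4 for Eno1, and -0.49 and -0.37 for Pgam1, none of which passed. With Pax7Cre mice 2 and 4 both left out, an alternative added after the data were seen, 8 of 11 muscle isoforms and 2 of 16 shared forms rose, where 0.927% of all genes did, and the slopes of the 11 muscle isoforms lay between 0.59 and 2.49. In that fit 7 of 10 broad isoforms had a slope above 0, Pgam1 among them at 0.37, while Eno1 stayed at -0.34 and Pygb at -0.22, and neither passed. Among the miR-501KO mice alone, mouse 4, which had the highest score of its genotype, was also the highest of 5 for 11 of 11 muscle isoforms and 14 of 16 shared forms.

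Genes of younger fibers and of other cells moved with the score as well. Of the 6 regenerating fiber genes 4 fell with it (Myh3, Myog, Mymx and Ncam1) and 0 rose, with a median slope of -0.54. Of the 8 macrophage genes 2 fell (Itgam and Mrc1) and 0 rose, with a median of -0.34. Of the fibroblast and endothelial genes 1 of 4 (Dcn) and 1 of 4 (Kdr) rose and 0 fell, and of the 4 adipocyte and 4 red cell genes 0 passed the test. Of the 4 neutrophil genes 3 could be tested and 1 (Retnlg) rose, and their sum stayed between 1.23 and 4.33 CPM. Without Pax7Cre mouse 2 none of the genes of these lists passed, and the median slope was -0.45 for the regenerating fiber and -0.42 for the macrophage genes. Without Pax7Cre mouse 3, 5 of 6 regenerating fiber and 4 of 8 macrophage genes fell. Without mouse 4, 2 of 6 and 0 of 8 fell. The shares of all genes in these fits are given above. The part of the other cells in the slopes was not tested. Of 39 other genes of the pathway 15 rose and 3 fell, where 10.9% and 6.25% of all genes did, and their median slope was 0.19. Without Pax7Cre mouse 2, 0 rose and 0 fell, and the median was 0.17. Without mouse 3, 16 rose and 7 fell, and without mouse 4, 13 rose and 1 fell. The 3 that fell, named after their values were seen, were G6pdx (-0.37), Pgd (-0.36) and Tkt (-0.34), enzymes of the pentose phosphate path, which branches from glycolysis to supply NADPH and ribose. Taldo1, another enzyme of that path, had a slope of -0.04 and did not pass. The adjusted p of G6pdx, Pgd and Tkt were 0.0158, 0.0162 and 0.0104 by edgeR, and without Pax7Cre mouse 2 their slopes were -0.29, -0.36 and -0.37. Without Pax7Cre mouse 4 Pgd (-0.34, adjusted p 0.0815 by edgeR) and Tkt (-0.31, 0.0658) did not pass, and G6pdx (-0.34, 0.0571) did not with mice of equal number as a block.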

How the data were processed

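RNA of 10 TA muscles was sequenced from stranded mRNA libraries in single-end reads. The authors deposited raw counts per Ensembl gene, made with STAR and featureCounts on GRCm38.p5 per the processing notes, without normalization. How reads on several genes were handled is not given in the sources used here. TMM factors came from edgeR 4.0.16 in R 4.3.3, which kept 14410 genes by filterByExpr (minimum count 10) and compared genotypes by quasi-likelihood with Benjamini-Hochberg adjustment. Slopes on the mature fiber score used the same test with genotype as a term. Isoform ratios (CPM plus 0.5) had an exact two-sided permutation test. Totals were 18609222 to 24753258 counts per mouse, and the spread between mice, larger than counting error, limits the precision. The labels number separate mice, and every 2 libraries of a genotype differed by more than counting noise (chi-square per gene at least 9.47).

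The set, its classes, the marker lists and the tests were chosen with earlier results of these data known. Fold changes are printed for the 14 genes of the 7 pairs and the 5 genes with the smallest unadjusted p, slopes for the pairs and the 5 largest, and other genes by range and count unless said otherwise. Some results on other genes are not reported here. Exon length came from GENCODE M21, which held 25587 of 25700 identifiers. Of the 2 identifiers named Aldoa the one with more counts was used, and Pgm1 is the gene on chromosome 4. Both tests were tried on simulated data with 200 genes changed by a log2 of 1. The genotype test recovered 91% with 6.19% false among 194 calls, and the slope test 74.5% with 7.45% false among 161. The changed genes came from outside the set and the fiber genes, and counts were drawn independently for each gene. The slope simulation was given the score of the real libraries. These figures therefore do not measure recovery for the set. Its median SD of log2 CPM within a genotype was 0.33, beside 0.18 over all genes tested. Alternatives were DESeq2 1.42.0 size factors and Wald test, other TMM factors, filters and tests, a replicate block, the score as covariate, leaving out each mouse, other scores and pseudocounts. Both the newer quasi-likelihood form and the fit without Pax7Cre mice 2 and 4 were added after the data were seen.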

Additional observations from a re-analysis of the deposited data

Results flagged for a closer look

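In 9 of 90 groups of 5 mice, 1 mouse lay so far from the rest of its genotype that the gap exceeded Dixon's 95% critical value of 0.71 of the range. The search covered the CPM of 37 genes, 7 log2 ratios and the mature fiber score in each genotype, and chance alone gives about 4.5 such groups. Pax7Cre mouse 2 was the high one for 6 muscle isoforms, Hk2 (128 CPM, beside 49.7 to 65.2 CPM in the other 4), Pfkm (1719 CPM, beside 627 to 922 CPM in the other 4), Slc2a4 (245 CPM, beside 55.5 to 91.2 CPM in the other 4), Phkg1 (174 CPM, beside 45 to 81.8 CPM in the other 4), Ppp1r3a (168 CPM, beside 47.8 to 78 CPM in the other 4) and Pfkfb1 (27.4 CPM, beside 4.85 to 9.36 CPM in the other 4). It was the low one for Pygb (40.5 CPM, beside 45.7 to 47.7 CPM) and Pgm2 (17.8 CPM, beside 24.2 to 26.5 CPM). The remaining case was miR-501KO mouse 4, high for Pfkfb1 with 18.6 CPM, beside 8.81 to 10.6 CPM in the other 4. Both mice had the highest mature fiber score of their genotype, 0.75 and 0.37.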

How the results depend on the processing

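Leaving out 1 mouse at a time turned the sign of log2 fold changes close to 0, which lay between -0.094 and 0.28 for Pygm, -0.24 and 0.30 for Hk2, -0.14 and 0.32 for Pfkm, -0.12 and 0.22 for Pgam2, -0.21 and 0.58 for Slc2a4, -0.27 and 0.59 for Pfkfb1, -0.095 and 0.20 for Eno3 and -0.073 and 0.057 for Hk1. The differences in log2 ratio lay between -0.17 and 0.27 for Hk2 to Hk1, -0.36 and 0.25 for Pfkm to Pfkl, -0.46 and 0.11 for Pgam2 to Pgam1, -0.32 and 0.12 for Eno3 to Eno1, -0.48 and 0.28 for Slc2a4 to Slc2a1 and -0.35 and 0.14 for Pfkfb1 to Pfkfb3, and between 0.03 and 0.42 for Pygm to Pygb. Of the slopes of the 37 genes, 3 turned, and lay between -0.10 and 0.73 for Pfkfb3, -0.16 and 0.11 for Hk1 and -0.40 and 0.24 for Pgm2. With the replicate block, which pairs mice of equal number, 0 genes had an adjusted p under 0.05, 3 were higher at an unadjusted p under 0.05 (Pfkfb3, Pfkp and Slc2a1, against 0.604% of all genes), and the log2 fold changes turned to 0.013 for Hk2, 0.069 for Pfkm, 0.028 for Pgam2, 0.20 for Slc2a4 and 0.17 for Pfkfb1. Equal numbers correlated at -0.30 to 0.34 after removal of the genotype mean, and 3 of 5 mice correlated best with their own number, so equal numbers were not taken as pairs. The block left 26 genes rising and 2 falling with the score, where 10.5% and 5.6% of all genes did. With the mature fiber score as a covariate of the genotype test 3 genes were higher (Eno1, Pfkp and Pgam1, against 2.75%) and 1 lower (Ppp1r3a, against 1.82%), 0 at an adjusted p under 0.05, the median of the broad isoforms was 0.22, and the values turned to -0.052 for Eno3, -0.087 for Pygm and 0.0092 for Hk1. Without a genotype term 0 broad isoforms and 0 of all 37 genes fell with the score, where 4.65% of all genes did, and Pgam1 (-0.47) and Eno1 (-0.30) no longer passed. With both Pax7Cre mice 2 and 4 left out, 10 genes rose and 0 fell, where 0.927% and 0.055% of all genes did, and 0 broad isoforms fell, and the slopes turned to 0.58 for Hk1, 0.32 for Pfkl, 0.37 for Pgam1, 0.15 for Slc2a1, 0.13 for Pfkp and 0.29 for Pgm2, while Eno1 (-0.34) and Pygb (-0.22) kept theirs. Without 1 mouse, 0 to 7 genes were higher and 0 were lower between genotypes at an unadjusted p under 0.05, the median fold change was -0.14 to 0.30 for the muscle and 0.047 to 0.24 for the broad isoforms, 2 to 11 muscle isoforms and 2 to 26 genes rose with the score, and 0 to 5 broad isoforms, which were all genes of the set that fell, fell, while 0.083% to 11.9% of all genes rose and 0% to 8.43% fell. DESeq2's size factors, TMM factors without the set and the fiber genes, and the unfiltered table kept every count and direction of the set. So did a minimum of 10 counts in each mouse, DESeq2's Wald test, the likelihood ratio test and the newer quasi-likelihood form. The summed fiber CPM and pseudocounts of 0.1 and 2 kept them too, each among those it was run on. The marker lists moved. With the summed fiber CPM 5 of 6 regenerating fiber and 4 of 8 macrophage genes fell with the score. With a minimum of 10 counts in each mouse 4 of 8 macrophage genes fell, and no neutrophil gene could be tested. The causes of these changes were not tested.

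Limits: the slopes come from 10 libraries, of which 2 lie at the ends of the score, and the score is read from the same libraries as the genes. Counts of Fbp2, Pfkfb1 and Aldoc are low enough for counting error to add to the spread between mice. The labels name no batch.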

Other observations

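Genes around the path that were chosen for naming after their values were seen moved with the mature fiber score too. Mpc1 and Mpc2, the subunits of the carrier that takes pyruvate into mitochondria, rose by 0.99 ± 0.12 (SE) and 1.08 ± 0.11 on the log2 scale for each unit of score. The lactate transporters Slc16a1 and Slc16a3 rose by 0.63 ± 0.11 and 0.90 ± 0.19, the lactate dehydrogenase Ldhd by 1.38 ± 0.16, and Tigar, which lowers fructose 2,6-bisphosphate, by 1.37 ± 0.19. On the glycogen side the glycogen phosphatase Epm2a, known from Lafora disease, rose by 0.89 ± 0.11. These 7 had an adjusted p under 0.05 by edgeR, between 9.18e-05 and 0.00659, and without Pax7Cre mouse 2 none of the 7 passed, with slopes between 0.67 and 1.56. Pygl, the liver phosphorylase, had a slope of -0.32 ± 0.11 and Hk3, the hexokinase of white blood cells, one of -0.43 ± 0.16, with adjusted p of 0.0688 and 0.0763 by edgeR. Both passed with mice of equal number as a block (adjusted p 0.0482 and 0.0303) and without Pax7Cre mouse 3 (0.0412 and 0.0361). Hk3 also passed without Pax7Cre mouse 1 (0.047). Neither passed without Pax7Cre mouse 2 (adjusted p 0.607 for Pygl and 0.545 for Hk3 by edgeR) or without mouse 4 (0.229 and 0.143). Between genotypes none of the 39 tested genes of this list had an unadjusted p under 0.05 by edgeR.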
